A study of Mus musculus with 25 samples.

Results

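The mitochondrial genome transcripts described here are 10 protein-coding mRNAs of mitochondrial DNA in the mouse heart: mt-Nd1, mt-Nd2, mt-Nd4, mt-Nd5 and mt-Nd6, which encode membrane subunits of complex I (NADH dehydrogenase), mt-Cytb, the cytochrome b of complex III, mt-Co1, mt-Co2 and mt-Co3, the core subunits of complex IV (cytochrome c oxidase), and mt-Atp6, the proton-channel subunit of ATP synthase. They were chosen by gene symbol, and all 10 were found among 35890 genes with a transcript in the table. The libraries were made from mRNA of left ventricular tissue, as the extraction notes in the labels give it (the tissue field reads heart), of 25 male mice in 5 groups of 5, each library being a separate mouse. The wild-type (WT) and GPx4+/- mice were littermates, and GPx4+/- mice carry a single working copy of Gpx4, the selenoenzyme that reduces lipid hydroperoxides. From 8 to 10 weeks of age the mice ate either a starch-based control chow (CNTL) or a high fat high sucrose diet made with lard, cholesterol and sucrose (HFHS) for 16 weeks. The groups were named GPx4+/- CNTL, GPx4+/- HFHS, WT CNTL, WT HFHS and WT HFHS + Carnosine, and mice of the last drank 80 mM carnosine, a histidine dipeptide that binds reactive aldehydes, from week 7 of the diet. Mice were fasted and given dextrose or saline before the hearts were taken, and the labels do not say which mouse received which.

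Mitochondrial DNA is copied into long RNAs that run around the circle from both strands. Transfer RNAs punctuate these long RNAs and mark where they are cut, so mRNAs from the same strand begin as parts of 1 precursor and reach different final levels through processing and decay. In heart muscle, which is packed with mitochondria, most of the mature mRNAs carry short poly(A) tails and are kept by poly(A)-selected libraries. The ND6 mRNA is known as an exception with little or no tail, so the level of mt-Nd6 here carries that limit. Levels are given as TPM, the number of transcripts of a gene among every 1000000 of a library after correction for transcript length. The correction puts genes of different length on 1 scale, but overlapping genes of the same strand were still listed at unlike levels (values under other observations).

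As a check of the genotype labels, Gpx4 after scaling between libraries was 592.3 to 777.0 TPM in the 10 WT hearts without carnosine, 665.2 to 733.0 in the carnosine hearts and 250.8 to 381.9 in the 10 GPx4+/- hearts, without overlap. The summed level of 10 ventricular cardiomyocyte markers (Myh6, Myl2, Ttn and others) was between 46440 and 58170 TPM in every library, while 5 atrial markers reached 7366 TPM in a GPx4+/- CNTL heart and 4579 in a WT CNTL heart against medians of 256.9 and 141.6 in those groups. A GPx4+/- HFHS heart had 2691 TPM of atrial markers against a median of 48.24, and a GPx4+/- CNTL heart had 1004 TPM of 5 hepatocyte markers against a median of 5.441.

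On the mouse assembly GRCm38, the 10 genes lie on chromosome M, and 9 are read from the plus strand: mt-Nd1 (2751 to 3707), mt-Nd2 (3914 to 4951), mt-Co1 (5328 to 6872), mt-Co2 (7013 to 7696), mt-Atp6 (7927 to 8607), mt-Co3 (8607 to 9390), mt-Nd4 (10167 to 11544), mt-Nd5 (11742 to 13565) and mt-Cytb (14145 to 15288). Only mt-Nd6 (13552 to 14070) is read from the minus strand. Each gene is a single exon with 1 transcript in the annotation. The neighbours mt-Nd1 and mt-Nd2 carry the main difference reported here, so the first 60 bases of both mRNAs are shown from the GENCODE M21 transcripts, with the start codon in capitals. The first begins with GTG and the second with ATA, both of which mouse mitochondria use as start codons.
mt-Nd1: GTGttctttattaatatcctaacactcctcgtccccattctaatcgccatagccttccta
mt-Nd2: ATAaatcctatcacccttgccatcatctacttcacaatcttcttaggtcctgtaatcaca

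The last 30 bases of 5 mRNAs show how these transcripts end, with capitals for the stop codon as far as the gene encodes it. mt-Nd1 and mt-Nd2 end in a complete TAG. The genes of mt-Co3, mt-Nd4 and mt-Cytb end in a lone T, and the poly(A) tail completes the codon.
mt-Nd1: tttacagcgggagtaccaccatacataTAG
mt-Nd2: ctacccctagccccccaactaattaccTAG
mt-Co3: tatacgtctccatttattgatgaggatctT
mt-Nd4: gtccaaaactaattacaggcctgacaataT
mt-Cytb: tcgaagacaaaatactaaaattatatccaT

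mt-Nd5 and mt-Nd6 face each other and share their last 14 bases on opposite strands, shown in capitals at the end of each mRNA. The libraries were made with a stranded kit, and whether the quantification used the strand is not given in the sources used here, so the level of mt-Nd6 carries that limit, since plus-strand precursor RNA runs across its gene. The same holds for minus-strand RNA lying opposite the other 9 genes.
mt-Nd5: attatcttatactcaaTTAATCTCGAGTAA
mt-Nd6: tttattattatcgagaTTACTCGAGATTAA

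mt-Co1 had the highest level of the 10, with a mean of 82780 TPM over the 25 hearts and a range of 72760 to 89960. Its protein holds the oxygen-reducing centre of complex IV. It was followed by mt-Co2 (48520 TPM), mt-Co3 (40060), mt-Cytb (39900), mt-Atp6 (35410), mt-Nd1 (22940), mt-Nd4 (20330), mt-Nd6 (19780), mt-Nd2 (15480) and mt-Nd5 (14710). mt-Nd5 encodes the outermost proton-pumping subunit of complex I and is the longest of the 10 mRNAs at 1824 bases.

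Some of this order held in every heart and some did not. mt-Co1 exceeded mt-Co2 in 25 of 25 hearts, mt-Atp6 exceeded mt-Nd1 in 25 and mt-Nd1 exceeded mt-Nd4 in 25. By contrast mt-Co3 exceeded mt-Cytb in 13 of 25 and mt-Nd4 exceeded mt-Nd6 in 17, so these neighbours in the order were not separated. mt-Nd2 exceeded mt-Nd5 in 21 and mt-Co2 exceeded mt-Co3 in 20. The subunits of complex I were therefore the lower part of the order, and complex IV the upper part.

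**Figure D1:**
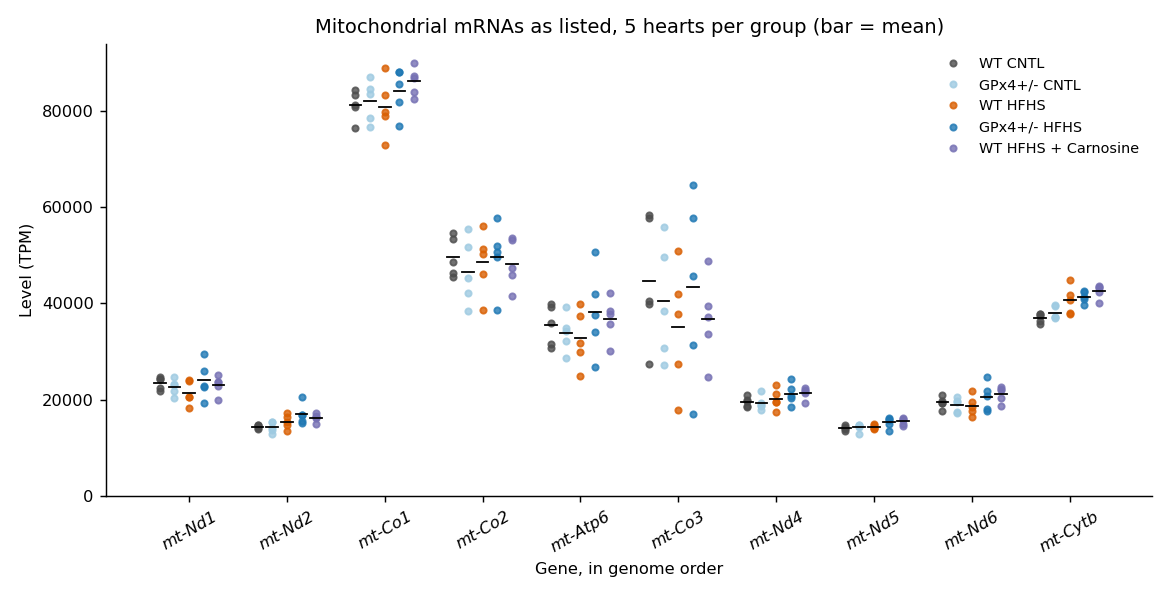
Level of each of the 10 mRNAs in TPM (vertical axis) in genome order (horizontal axis), with 5 hearts per group as points and the group mean as a bar. mt-Co1 lies above the rest in every heart (72760 to 89960 TPM), and mt-Co3 spreads from 17060 to 64640 TPM with all 5 groups overlapping.

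The levels of mt-Co3, mt-Co2 and mt-Co1 have to be read with near-identical nuclear copies of these genes. On chromosome 1, between 24611535 and 24616197 on the minus strand, GRCm38 carries a stretch of 4663 bases with 7 unprocessed pseudogenes that match consecutive mitochondrial genes, and the table lists each of them as a transcript of its own. Gm28437 (24613189 to 24613971) is identical to mt-Co3 over all 783 of its bases, Gm28661 (24614885 to 24615565) is identical to mt-Co2 over 681, and Gm10925 (24613974 to 24614651) is identical to mt-Atp6 over 678. A read from inside these stretches cannot be assigned to either gene from its sequence. The 3′ ends of each mRNA and its copy are shown here, with the bases that the copy lacks in capitals.
mt-Co3: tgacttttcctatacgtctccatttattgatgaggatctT
Gm28437: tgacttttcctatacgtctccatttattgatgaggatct
mt-Co2: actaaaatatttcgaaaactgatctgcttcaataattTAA
Gm28661: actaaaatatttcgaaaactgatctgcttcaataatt
mt-Atp6: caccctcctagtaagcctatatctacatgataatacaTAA
Gm10925: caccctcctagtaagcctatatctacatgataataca

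Gm29216 (24615706 to 24616197) is a copy of the last part of mt-Co1 only, 492 bases long. Bases 1054 to 1113 of mt-Co1 and the first 60 of Gm29216 are shown because they hold the differences at the copy's start, in capitals. Counted from 1 at the first base of mt-Co1, with the mt-Co1 base first, they are T1056A, C1057T, A1059G, A1060G, C1062A and A1066T. Beyond base 13 the copy is identical to mt-Co1, so a read from there cannot be assigned to either gene from its sequence.
mt-Co1: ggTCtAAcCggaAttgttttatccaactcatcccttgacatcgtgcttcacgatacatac
Gm29216: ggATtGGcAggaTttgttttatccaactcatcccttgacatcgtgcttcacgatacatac

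The level listed for mt-Co3 moved opposite to that of its copy from heart to heart. In the WT CNTL hearts mt-Co3 was 40420, 27340, 57740, 39760 and 58250 TPM where Gm28437 was 13440, 22340, 213.8, 13440 and 4115. GPx4+/- HFHS hearts gave 17060, 64640, 31410, 45630 and 57710 TPM for mt-Co3 against 26860, 302.1, 24470, 12800 and 5365 for the copy. Within both groups the heart with the most mt-Co3, or 1 close to it, had the least Gm28437. WT HFHS hearts gave 37860, 17860, 50790, 41840 and 27440 TPM for mt-Co3, those of GPx4+/- CNTL 38360, 27260, 55920, 30780 and 49690, and those of WT HFHS + Carnosine 37240, 48760, 33650, 24620 and 39400. All 5 groups overlapped, and over the 25 hearts, which share the split of the same reads, Pearson's r between mt-Co3 and Gm28437 was -0.923 and Spearman's rho -0.934.

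When each copy's TPM was added to its mitochondrial gene in proportion to the transcripts' lengths, mt-Co3 ranged over 1.56-fold instead of 3.79-fold. Its sum was 41700 to 64940 TPM, and the SD within groups went from 0.61 to 0.25 on the log2 scale. mt-Co2 behaved alike to a smaller degree, with a correlation of -0.793 between gene and copy, a range of 1.29-fold with the copy against 1.50-fold without, and an SD of 0.168 against 0.247. Gm29216 took 30.8 to 41.9% of the TPM listed for mt-Co1 and its copy together, with a correlation of -0.158. Gm10925 took at most 4.73% beside mt-Atp6. With the copies added, mt-Co3 averaged 55500 TPM and exceeded mt-Cytb in 25 of 25 hearts, whereas mt-Co1 averaged 97030 and mt-Co2 59630. mt-Nd1, mt-Nd2, mt-Nd5, mt-Nd6 and mt-Cytb have no copy in this cluster, and Gm28439, the copy of part of mt-Nd4, was listed at 0.

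**Figure D2:**
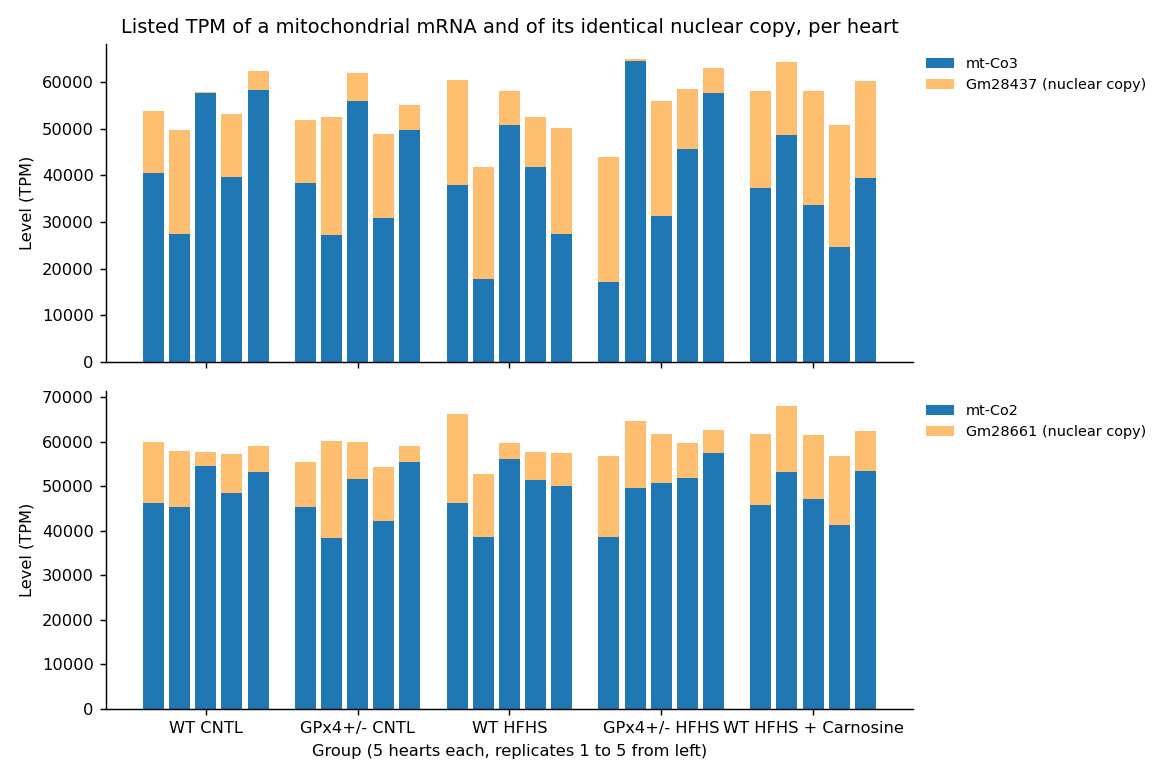
Stacked bars of the level in TPM (vertical axis) listed for mt-Co3 and its nuclear copy Gm28437 (top) and for mt-Co2 and Gm28661 (bottom), 1 bar per heart, replicates 1 to 5 from left in each of the 5 groups. The mitochondrial part of the mt-Co3 bars runs from 17060 to 64640 TPM. Taken separately, the copy's share of these bars runs from 0.369% (WT CNTL replicate 3) to 61.2%.

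The 10 mRNAs were a large part of all mRNA in these hearts. Their share of library TPM was 33.8, 31.0, 35.7, 32.4 and 36.7% in the WT CNTL mice, and 31.9, 31.3, 37.1, 29.8 and 35.1% in GPx4+/- CNTL. WT HFHS mice had 35.8, 27.1, 36.6, 33.0 and 31.4%, and GPx4+/- HFHS mice 28.6, 40.8, 34.3, 34.7 and 39.0%. Carnosine mice had 34.8, 37.4, 34.3, 30.7 and 36.7%. The ranges overlapped in all 5 groups, and both the lowest and the highest share were found among HFHS hearts.

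The group means of that share were 33.9 ± 2.35% (SD, n = 5), 33.0 ± 2.97, 32.8 ± 3.78, 35.5 ± 4.76 and 34.8 ± 2.63% in the order of the values just given. With the copies added by length they were 37.2 ± 1.27, 36.9 ± 2.17, 37.2 ± 3.41, 39.5 ± 3.27 and 39.8 ± 2.17%. In bulk tissue, fewer cardiomyocytes and less mitochondrial RNA per cardiomyocyte cannot be told apart in such a share. Over all hearts complex IV held 17.1 ± 2.02% of library TPM with 3 of the 10 mRNAs, complex I 9.32 ± 0.78% with 5, complex III 3.99 ± 0.26% and ATP synthase 3.54 ± 0.57% with 1 each.

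**Figure D3:**
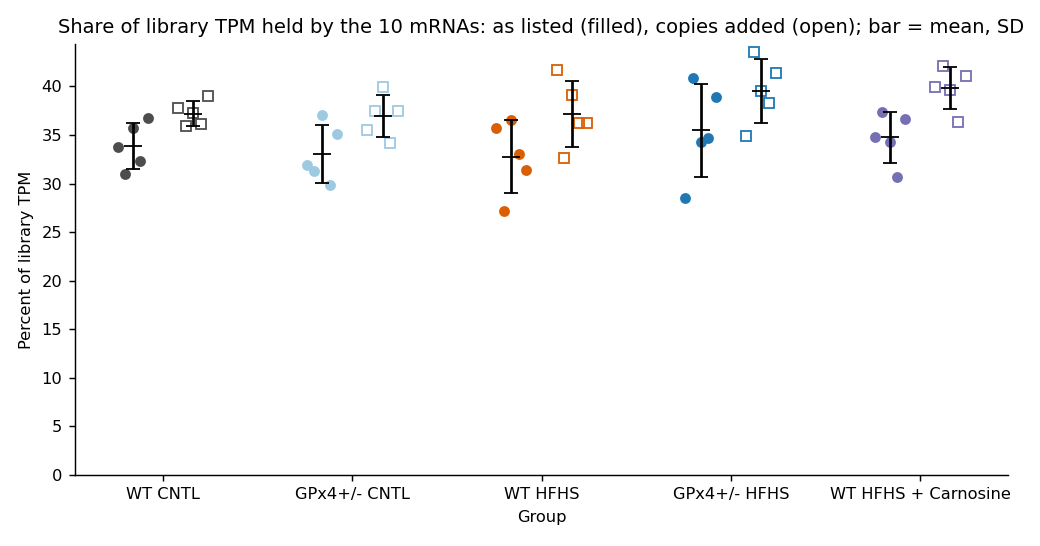
Percent of library TPM held by the 10 mRNAs (vertical axis) in the 5 groups (horizontal axis), as listed (filled circles) and with nuclear copies added by length (open squares), 5 hearts each with mean and SD. As listed, all groups overlap between 27.1 and 40.8%, and the added copies raise the mean over all hearts from 34.0 to 38.1%.

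The first comparison asked what the HFHS diet did to each mRNA. None of the 10 passed the limma test at an adjusted p under 0.05 in the diet contrast over both genotypes, where 8.32% of all 11977 genes tested did, and 2 of the 10 had an unadjusted p under 0.05 against 24.4% of all genes. These 2 were mt-Cytb and mt-Nd2. mt-Cytb was 37680, 37430, 35790, 36420 and 37750 TPM in WT CNTL hearts and 44790, 37740, 41660, 38020 and 40750 in WT HFHS hearts. In GPx4+/- it was 37010, 39490, 39630, 37140 and 37180 TPM on CNTL and 40850, 42550, 42400, 39570 and 41210 on HFHS. The lowest HFHS heart of each genotype lay just below the highest CNTL heart, and the other 4 lay above. After scaling between libraries, the log2 difference was 0.18 with an SE of 0.07 (adjusted p = 0.116, limma).

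mt-Nd2, whose protein is another proton-pumping subunit of complex I, had a similar pattern. WT CNTL hearts had 14550, 14170, 14770, 13900 and 14730 TPM and WT HFHS hearts 16370, 13480, 17170, 14690 and 15360. On CNTL the GPx4+/- hearts had 14220, 15290, 15330, 12960 and 13620 TPM, and on HFHS 15110, 20570, 16750, 15620 and 16920. WT HFHS replicate 2 was below every WT CNTL heart and the highest value was that of GPx4+/- HFHS replicate 2. The log2 difference of scaled TPM was 0.22 with an SE of 0.09 (adjusted p = 0.121, limma). Without WT HFHS replicate 2, the library with the lowest mitochondrial share, both mRNAs passed: mt-Nd2 at 0.27 (adjusted p = 0.0497, limma) and mt-Cytb at 0.21 (adjusted p = 0.0461, limma), and over 11 alternative settings the adjusted p of mt-Nd2 ran from 0.078 to 0.858 and that of mt-Cytb from 0.0563 to 0.666.

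The remaining 8 mRNAs had log2 differences between -0.14 (mt-Co3) and 0.13 (mt-Nd4) over both genotypes. In WT mice alone none of the 10 passed where 1.18% of all genes did, none had an unadjusted p under 0.05 against 16.5% of all genes (limma), and their median log2 difference was -0.03 with 4 of 10 positive. Without WT HFHS replicate 2 that median was 0.08 with 8 of 10 positive, and leaving out any other single WT mouse gave medians between -0.08 and 0.01. GPx4+/- mice gave a median of 0.21 with 10 of 10 positive, between 0.11 (mt-Co3) and 0.35 (mt-Nd2), and again none passed, where 3.45% of all genes did (lowest adjusted p = 0.127, limma). Without GPx4+/- HFHS replicate 2 the GPx4+/- median was 0.14 with 9 of 10 positive, and mt-Co3 was -0.10. The count was also 9 of 10, with mt-Co3 below 0, without GPx4+/- HFHS replicate 5 or GPx4+/- CNTL replicate 2. In GPx4+/- mice, mt-Nd2, mt-Nd5 and mt-Cytb had an unadjusted p under 0.05, as did 18.4% of all genes. The difference between the genotypes in the response to diet had a median of 0.25 (0.15 without WT HFHS replicate 2 and 0.17 without GPx4+/- HFHS replicate 2), and no mRNA passed, in a contrast where limma called 0% of all genes (0 of the 10 and 846 of all genes had an unadjusted p under 0.05). The median over all genes was between -0.0076 and 0.00069 in these contrasts.

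**Figure D4:**
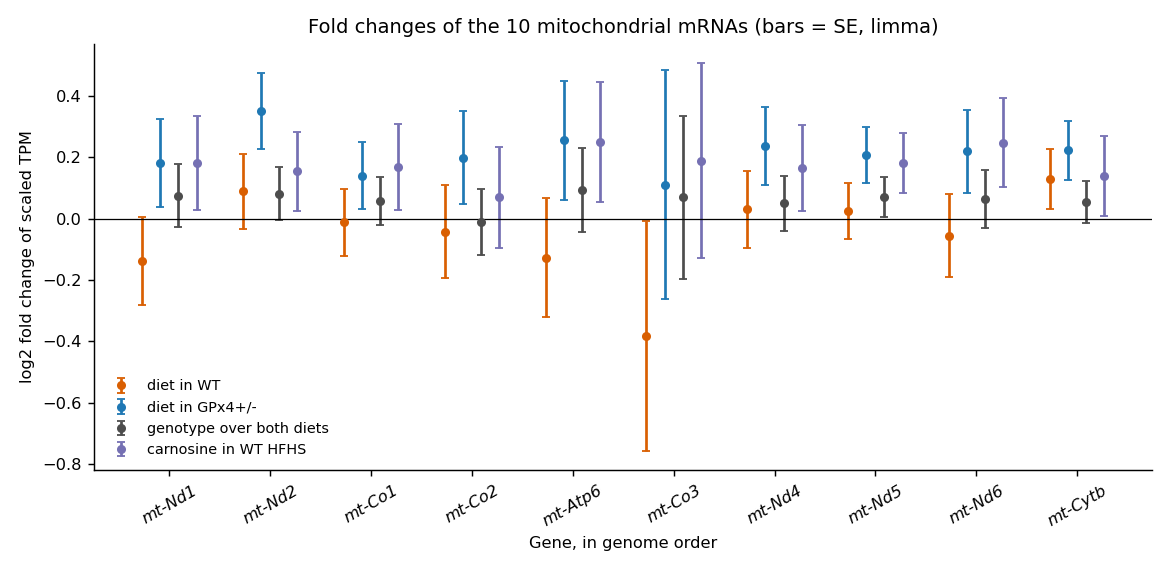
log2 fold change of scaled TPM (vertical axis) of the 10 mRNAs in genome order for diet in WT, diet in GPx4+/-, genotype over both diets and carnosine in WT HFHS, with bars for the SE from limma. None of the points passed the test, and the largest bars belong to mt-Co3 (-0.38 in WT on HFHS against CNTL, SE 0.37).

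The clearest difference was between neighbours on the same strand: mt-Nd2 rose relative to mt-Nd1 on the HFHS diet. Since a ratio within a library needs no scaling between libraries, the 9 ratios of neighbouring mRNAs were tested in 3 contrasts, 27 tests in all, of which 2 (7.41%) passed, both among the 9 for diet (22.2%). WT CNTL hearts held 0.600, 0.650, 0.611, 0.622 and 0.597 mt-Nd2 transcripts per mt-Nd1 transcript, and WT HFHS hearts 0.682, 0.737, 0.717, 0.717 and 0.751. The lowest WT HFHS heart was above the highest WT CNTL heart. In the GPx4+/- hearts the ratio was 0.651, 0.664, 0.620, 0.634 and 0.585 on CNTL and 0.783, 0.696, 0.743, 0.682 and 0.650 on HFHS, so that 1 HFHS heart fell within the CNTL range. The diet difference over both genotypes was 1.15-fold (0.20 on the log2 scale, exact two-sided permutation test within genotype, p = 9.448e-05, adjusted p = 0.00213 over 27 tests, smallest p possible 3.149e-05).

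Within each genotype the same ratio was 1.17-fold higher on HFHS in WT mice (exact permutation p = 0.00794, the smallest that 5 against 5 mice allow) and 1.13-fold higher in GPx4+/- mice (exact permutation p = 0.0238). Neither gene has a copy in the chromosome 1 cluster, and leaving out any single mouse gave 0.18 to 0.21 on the log2 scale. Neither level passed its own test, so the levels do not show which of the pair moved. mt-Nd1 averaged 23450 ± 1289 TPM (SD, n = 5) in WT CNTL and 21440 ± 2479 in WT HFHS while mt-Nd2 averaged 14430 ± 378 and 15410 ± 1436. In GPx4+/- hearts mt-Nd1 averaged 22660 ± 1612 on CNTL and 24070 ± 3885 on HFHS, and mt-Nd2 14280 ± 1036 and 17000 ± 2139. mt-Nd1, which encodes the subunit at the junction of the membrane and peripheral arms of complex I, had a log2 diet difference of 0.02 with an SE of 0.10 (adjusted p = 0.924, limma). In the genome the pair are separated by 206 bases of transfer RNA genes.

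The second ratio that passed was mt-Co1 over mt-Nd2, which lie 376 bases apart and which fell by 0.16 on the log2 scale with HFHS (exact permutation p = 0.000157, adjusted p = 0.00213). Both ratios that passed contain mt-Nd2, above the line in the first and below it in this, so they are not independent results. It was 5.72, 5.70, 5.17, 5.84 and 5.72 in WT CNTL hearts, 5.43, 5.40, 4.84, 5.43 and 5.13 in WT HFHS, 5.52, 5.53, 5.67, 5.91 and 6.12 in GPx4+/- CNTL and 5.08, 4.16, 5.25, 5.24 and 5.20 in GPx4+/- HFHS. The GPx4+/- groups did not overlap, and the WT groups overlapped only through WT CNTL replicate 3. This ratio depends on how the nuclear copy of mt-Co1 is treated. With Gm29216 added by length the difference was -0.13 (exact permutation p = 0.00759, adjusted p = 0.102), and with its full TPM added -0.08 (adjusted p = 0.812 by exact permutation). Within genotypes the difference as listed was -0.10 in WT (exact permutation p = 0.0397) and -0.21 in GPx4+/- mice (exact permutation p = 0.00794, the smallest possible). By length it was -0.06 in WT (exact permutation p = 0.341) and -0.19 in GPx4+/- mice (exact permutation p = 0.00794), and whether the genotypes differ in this was not tested.

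The copy Gm29216 itself passed in the diet contrast, at 0.26 with an SE of 0.06 (1.20-fold, adjusted p = 0.012, limma), while mt-Co1 stood at 0.06 with an SE of 0.08 (adjusted p = 0.665, limma). The copy was 37690 to 43920 TPM in WT CNTL and 43030 to 53920 TPM in WT HFHS hearts. In GPx4+/- hearts it was 39710 to 44150 TPM on CNTL and 38000 to 54800 on HFHS, and these groups overlapped, GPx4+/- HFHS replicate 2 lying below every CNTL heart of its genotype. Whether the reads assigned to it came from the nuclear or the mitochondrial gene was not tested. mt-Nd4 over mt-Co3 was the only other diet ratio with a p under 0.05 once copies were added by length (0.08, exact permutation p = 0.0164, adjusted p = 0.147), and as listed it was 0.27 (exact permutation p = 0.225).

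**Figure D5:**
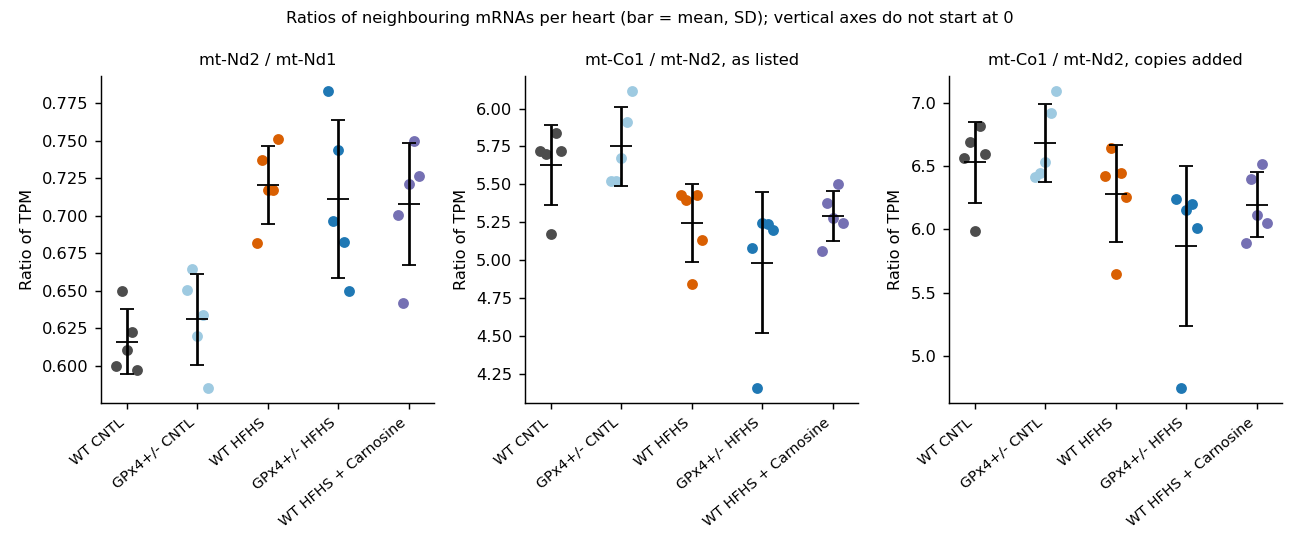
Ratio of TPM (vertical axes, not starting at 0) of mt-Nd2 over mt-Nd1, mt-Co1 over mt-Nd2 as listed, and mt-Co1 over mt-Nd2 with copies added by length, per heart in the 5 groups, with mean and SD. mt-Nd2 over mt-Nd1 lies at 0.597 to 0.650 in WT CNTL and 0.682 to 0.751 in WT HFHS hearts, and the mt-Co1 ratio as listed lies at 5.52 to 6.12 in GPx4+/- CNTL and 4.16 to 5.25 in GPx4+/- HFHS hearts.

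mt-Cytb over mt-Nd6 compares the last plus-strand gene with its minus-strand neighbour. It was 1.79, 1.93, 1.81, 2.07 and 1.95 in WT CNTL hearts and 2.06, 2.30, 2.13, 2.05 and 2.31 in WT HFHS hearts, overlapping through 1 CNTL heart. GPx4+/- hearts ranged from 1.88 to 2.14 on CNTL and from 1.73 to 2.31 on HFHS, and over both genotypes the log2 difference of 0.09 did not pass (exact permutation p = 0.0946, adjusted p = 0.638). Within genotypes it was 0.18 in WT (exact permutation p = 0.0238) and 0.0032 in GPx4+/- mice (exact permutation p = 0.976), both p-values unadjusted, and the difference between the genotypes was not tested. Against the geometric mean of the 9 plus-strand mRNAs, mt-Nd6 stood at 0.644 ± 0.051 (SD, n = 5) in WT CNTL, 0.640 ± 0.038 in WT HFHS and 0.676 ± 0.016 in carnosine hearts, and at 0.642 ± 0.037 and 0.646 ± 0.046 in the GPx4+/- hearts on CNTL and HFHS, overlapping throughout. mt-Nd6 is the only mRNA of its strand.

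The comparison of genotypes asked whether reduced Gpx4 moved the mitochondrial mRNAs. None of the 10 passed over both diets, where 0.0584% of all genes did (limma, none of the 10 and 3.88% of all genes with an unadjusted p under 0.05), and the log2 differences lay between -0.01 and 0.09. On CNTL the median was -0.06 with 1 of 10 positive, and on HFHS 0.18 with 10 of 10 positive. The HFHS median was 0.08 with 9 of 10 positive without WT HFHS replicate 2 and 0.10 without GPx4+/- HFHS replicate 2, and without either of these mice the median over both diets was 0.02 in place of 0.07. Leaving out single CNTL mice moved the CNTL median between -0.12 and -0.02. In each diet 0.0501% of all genes passed, and the lowest adjusted p of the 10 was 0.921 on CNTL and 0.977 on HFHS (limma). None of the 9 genotype ratios passed either, and mt-Nd2 over mt-Nd1 differed by 0.0057 on the log2 scale (exact permutation p = 0.862). No cell marker passed between genotypes. On CNTL all atrial (median 1.07), hepatocyte (1.56), fibroblast (0.13), macrophage (0.19) and red cell (0.37) markers were positive. On HFHS all hepatocyte markers were positive (1.71), and all smooth muscle (-0.66) and red cell (-0.11) markers negative. Other lists of more than 1 gene were mixed. The part of these markers in the mitochondrial results was not tested.

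The third comparison asked what carnosine did in WT mice on HFHS. The 10 mRNAs had log2 differences of 0.07 to 0.25 with a median of 0.17, all 10 positive, and none passed, as for 0% of all genes (limma, lowest adjusted p = 0.949, none of the 10 and 500 of all genes with an unadjusted p under 0.05). Without WT HFHS replicate 2 the median was 0.07 with 8 of 10 positive, and without carnosine replicate 2 it was 0.11 with 9 of 10 positive. mt-Nd2 over mt-Nd1 was 0.701, 0.642, 0.721, 0.750 and 0.726 in the carnosine hearts, which overlapped the WT HFHS hearts, and the log2 difference was -0.03 (exact permutation p = 0.587, adjusted p = 0.952). mt-Cytb over mt-Nd6 had the lowest p of the 9 carnosine ratios, at -0.11 on the log2 scale (exact permutation p = 0.0794, adjusted p = 0.638). mt-Cytb itself was 43530, 43110, 42430, 40010 and 43440 TPM with carnosine, a mean of 42510 ± 1459 against 40590 ± 2898 without (SD, n = 5). The WT HFHS hearts enter both the diet and the carnosine contrast.

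The 10 mRNAs moved together from heart to heart. Over the 25 hearts, which each have 1 scaling factor in common to all genes, Pearson's r between the log2 scaled TPM of 2 of them ran from 0.63 (mt-Co3 with mt-Cytb) to 0.982 (mt-Nd1 with mt-Atp6) with a median of 0.895 over 45 pairs. With copies added by length the lowest was 0.814. GPx4+/- HFHS replicate 2 was the highest heart for several of them at once: mt-Nd1 at 29540 TPM against 19300 to 26050 in its group, mt-Atp6 at 50620 and mt-Co3 at 64640. WT HFHS replicate 2 had the lowest mt-Nd1, at 18300 TPM.

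They also differed in how much they varied within groups. mt-Nd5 had the smallest SD of log2 scaled TPM within groups, 0.133, followed by mt-Cytb at 0.143 and mt-Co1 at 0.158. As listed, the largest belonged to mt-Co3 (0.61), mt-Atp6 (0.316) and mt-Co2 (0.247), with mt-Nd2 at 0.19, mt-Nd4 at 0.199, mt-Nd6 at 0.217 and mt-Nd1 at 0.232. With copies added by length mt-Atp6 had the largest (0.308), followed by mt-Co3 (0.25), and mt-Co2 fell to 0.168, below mt-Nd2. Longer mRNAs tended to vary less: across the 10 mRNAs, which share all libraries, the rank correlation of length with this SD was -0.782, and -0.709 with copies added.

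Complex IV mRNAs over plus-strand complex I mRNAs, as geometric means, varied less once the copies were added by length. As listed, this ratio was 3.20 ± 0.33 in WT CNTL, 2.90 ± 0.38 in WT HFHS and 2.83 ± 0.25 in carnosine hearts (SD, n = 5). In GPx4+/- hearts it was 3.08 ± 0.40 on CNTL and 2.90 ± 0.46 on HFHS. By length these were 3.85 ± 0.082, 3.80 ± 0.109 and 3.80 ± 0.146, and 3.86 ± 0.036 and 3.69 ± 0.208, in the same order. Compared per length with the nuclear-encoded subunits of the same complexes, the mean mitochondrial mRNA was far more abundant, by 36.3 ± 3.38 times for complex I in WT CNTL hearts (5 mRNAs over 36 nuclear subunits). The corresponding mean ratios in the other groups were 35.6 ± 3.70 (GPx4+/- CNTL), 36.5 ± 4.92 (WT HFHS), 42.1 ± 9.46 (GPx4+/- HFHS) and 40.6 ± 4.00 (carnosine). All groups overlapped, and the GPx4+/- HFHS hearts ran from 31.6 to 56.4.

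Nuclear genes that make, process and use these mRNAs were read in the same fits, and none of the tested members of 7 lists passed in any contrast. These were 13 genes of mitochondrial DNA transcription and copying, 19 of mitochondrial RNA processing and decay, 15 mitochondrial translation factors, and 36, 9, 10 and 15 nuclear subunits of complexes I, III and IV and of ATP synthase. In the diet contrast over both genotypes, where 8.32% of all genes passed (limma), their median log2 differences were -0.03, -0.05, -0.03, -0.01, 0.00, -0.05 and -0.05 in that order. The most abundant of each list included Tfb2m, a mitochondrial transcription factor (0.01), Fastk, a mitochondrial RNA-binding protein (0.02), Tufm, the mitochondrial elongation factor Tu (-0.05), Ndufb8 (-0.0030), Uqcr11 (0.02) and Cox4i1 (0.01), subunits of complexes I, III and IV, and Atp5b, the catalytic subunit of ATP synthase (-0.07). Nearest to the threshold among the named genes were Hsd17b10, a subunit of mitochondrial RNase P, at -0.16 (adjusted p = 0.0505, limma) and Polg, the mitochondrial DNA polymerase, at -0.12 (adjusted p = 0.0541, limma).

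Markers of other cells were read beside the diet results. Among 10 ventricular cardiomyocyte markers 2 fell with HFHS over both genotypes, where 8.32% of all genes passed in either direction, Ttn by 0.27 on the log2 scale (adjusted p = 0.00127, limma) and Myh6 by 0.18 (adjusted p = 0.0285, limma), and their summed level ranged from 50080 to 58170 TPM in WT CNTL, 46440 to 53970 in WT HFHS, 47600 to 53300 in carnosine, and 48850 to 57880 and 46770 to 52570 in GPx4+/- hearts on CNTL and HFHS. Of 7 fibroblast markers 2 rose, beside the same 8.32% of all genes, Lum by 0.55 (adjusted p = 0.0407, limma) and Pdgfra by 0.29 (adjusted p = 0.0497, limma), and their sums were 281.7 to 539.2, 362.7 to 671.0, 320.5 to 494.8, 304.1 to 444.1 and 348.5 to 519.2 TPM in the same order. The part of these shifts in the mt-Nd2 to mt-Nd1 ratio was not tested. None of the markers tested for atrial cardiomyocytes (5), smooth muscle (5), endothelium (6), macrophages (6), fat (1), hepatocytes (4) and red cells (5) passed in that contrast. Of these, the smooth muscle markers were 5 of 5 positive with diet (median 0.61 on the log2 scale) and 0 of 5 with carnosine (median -0.89), with sums of 66.16 to 134.6 TPM in WT CNTL, 100.2 to 529.5 in WT HFHS, 69.64 to 184.5 in carnosine, and 92.46 to 143.5 and 73.81 to 250.0 in GPx4+/- hearts on CNTL and HFHS. Atrial markers were 0 of 5 positive with diet (median -0.94), with sums of 127.0 to 4579, 30.56 to 275.4, 91.57 to 579.7, 130.5 to 7366 and 46.76 to 2691 TPM in that order of groups. With diet the endothelial and macrophage markers were 6 of 6 positive (medians 0.12 and 0.14), hepatocyte 0 of 4 (-0.35) and red cell 3 of 5. With carnosine the fibroblast markers were 1 of 7 positive (median -0.20), atrial 1 of 5 (-0.20) and red cell 0 of 5 (-0.26). Ventricular markers were 6 of 10 positive with carnosine, macrophage 4 of 6, hepatocyte 3 of 4 and endothelial 3 of 6. The part of any of these markers in the mitochondrial results was not tested.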

How the data were processed

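The authors deposited 1 table of TPM per transcript (119215 transcripts, 25 libraries). The submitters' processing notes name kallisto 0.43.1, sleuth 0.30.0 and GRCm38, whereas the study's methods describe STAR alignment and a DESeq2 comparison of counts. Columns were matched to mice through the library names in the labels, and groups and replicate numbers came from the labels. TPM keeps no read depth, so no counting error is given and p-values measure only the spread among mice.

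Transcripts were summed to genes by GENCODE M21. Of these, 116684 matched, and the 2531 others held 0.562 to 0.749% of library TPM. Each library was scaled by the median ratio over 10825 genes (factors 0.8653 to 1.156). The 11977 genes averaging 1 scaled TPM or more were tested on log2(scaled TPM + 0.5) with limma 3.58.1 in R 4.3.3, using 4 groups for diet and genotype and 2 for carnosine, with Benjamini-Hochberg adjustment at 0.05. Fold changes are on that scale, and limma stands in for the authors' count test because TPM are not counts. Exact permutation tests of log2 ratios were two-sided and ran in Python 3.11.15. Copies were transcripts of other genes with at least 95% identity over at least 200 bases (blastn 2.17.0). Each fit was tested on simulated data first. Named genes were the 10 mRNAs, other mitochondrial mRNAs, copies, in each list the 2 highest and those that passed, and the 5 nuclear genes most like and most unlike the 10. The members and lists were chosen with earlier results of these data known. Alternatives covered the scaling, pseudocount, low-value filter, copies, the replicate block and each mouse left out. Adding copies by length was chosen after seeing the data. No mitochondrial rRNA or tRNA was analysed here.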

Additional observations from a re-analysis of the deposited data

Results flagged for a closer look

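Among 100 sets of 5 values searched (each mRNA level, each ratio and the summed share in each group), 5 held a mouse far from the other 4, and chance alone flags about 1 in 20 such sets, or 5 here. The measure is the distance to the nearest mouse divided by the distance between lowest and highest. For mt-Co1 over mt-Nd2, WT CNTL replicate 3 was low at 5.17 against 5.70 to 5.84 (gap 0.79), and GPx4+/- HFHS replicate 2 was low at 4.16 against 5.08 to 5.25 (gap 0.845). For mt-Atp6 over mt-Co2, WT HFHS replicate 1 was high at 0.866 against 0.596 to 0.667 (gap 0.735), and GPx4+/- HFHS replicate 2 was high at 1.02 against 0.670 to 0.729 (gap 0.832). For mt-Nd6 over mt-Nd5, GPx4+/- CNTL replicate 4 was low at 1.22 against 1.34 to 1.38 (gap 0.726). Without GPx4+/- HFHS replicate 2 the diet difference of mt-Co1 over mt-Nd2 was -0.12 on the log2 scale and passed the exact permutation test (adjusted p = 0.0153 at most with any single mouse left out).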

How the results depend on the processing

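TPM does not keep the depth of the single libraries (the study's methods give an approximate figure for all), TPM of genes with identical copies depends on how reads were divided, and 5 mice a group limit what can pass. Values below are log2 differences, and where no cause is evident from how an alternative is built, the cause was not tested. Of the alternatives tried for single mRNAs in 3 contrasts, 790 kept direction and call, 38 changed sign among values that had not passed, and 2 passed. Quantile normalization gives the highest-ranked genes near-equal values by construction. Under it the signs turned for mt-Co2 (-0.047), mt-Atp6 (-0.0022), mt-Nd5 (-0.040) and mt-Nd6 (-0.073) with diet, mt-Co3 (-0.026), mt-Nd4 (-0.042) and mt-Nd6 (-0.020) with genotype, and mt-Nd1 (-0.031), mt-Co3 (-0.036), mt-Nd4 (-0.043) and mt-Nd5 (-0.055) with carnosine. With TPM as deposited mt-Nd1 was -0.030 with diet and mt-Co2 -0.0025 with carnosine. With nuclear genes rescaled mt-Co2 was 0.00060 with genotype. Adding copies, whole or by length, gave mt-Co3 0.048 with diet and mt-Co2 0.043 (whole) or 0.042 (by length) with genotype.

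For ratios, adding copies left 1 of 27 past the threshold in place of 2. With whole copies mt-Co1 over mt-Nd2 was -0.083 with diet and -0.063 with carnosine, and mt-Co2 over mt-Co1 was -0.043 with diet, 0.011 with genotype and 0.063 with carnosine. By length these were -0.13 and -0.019, and -0.00053 (diet) and 0.019 (carnosine). Tested as plain ratios, not logs, the 2 that passed differed by 0.0924 (mt-Nd2 over mt-Nd1) and -0.575 (mt-Co1 over mt-Nd2) in units of the ratio (adjusted p = 0.0017, exact permutation). Shares with whole copies were 39.97% (WT CNTL), 40.6% (WT HFHS), 43.0% (carnosine), 39.8% (GPx4+/- CNTL) and 42.7% (GPx4+/- HFHS), and by length 37.2, 37.2, 39.8 and 36.9% in the first 4. Leaving other mitochondrial transcripts out of the total used the 3 other mRNAs only, because rRNA and tRNA were not analysed here.

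With the replicate number as a block, 0 of 10 mRNAs passed in any contrast and the same 2 ratios passed (adjusted p = 0.0264, exact permutation). Only 6 of 35 same-numbered pairs deviated together (r over 0.1, median -0.006), so by this measure the numbers did not pair the mice. A single transcript could still follow the number. Gm13340, a copy of mt-Co1 on chromosome 2, was highest in replicates 1 and 2 of all 5 groups. It was 40.36 and 36.37 TPM against 24.21 to 25.53 in WT HFHS, and 31.55 and 39.08 against 27.53 to 30.58 in GPx4+/- CNTL. Whether the numbers mark a shared batch was not tested.

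Leaving out each mouse in turn gave 0 to 2 mRNAs past the threshold with diet, the 2 without WT HFHS replicate 2. The ranges that crossed 0 were, with diet, -0.033 to 0.073 for mt-Nd1, -0.0074 to 0.14 for mt-Atp6 and -0.24 to 0.028 for mt-Co3. With genotype they were -0.076 to 0.046 for mt-Co2 and -0.065 to 0.23 for mt-Co3, and with carnosine -0.057 to 0.14 and -0.079 to 0.36 for the same pair. Among ratios with diet they were -0.025 to 0.044 (mt-Co2 over mt-Co1), -0.068 to 0.011 (mt-Atp6 over mt-Co2) and -0.038 to 0.0029 (mt-Nd5 over mt-Nd4). With genotype they were -0.012 to 0.022 (mt-Nd2 over mt-Nd1), -0.039 to 0.0080 (mt-Co1 over mt-Nd2), -0.087 to 0.067 (mt-Co3 over mt-Atp6), -0.14 to 0.067 (mt-Nd4 over mt-Co3), -0.0020 to 0.038 (mt-Nd5 over mt-Nd4), -0.029 to 0.018 (mt-Nd6 over mt-Nd5) and -0.034 to 0.019 (mt-Cytb over mt-Nd6). With carnosine they were -0.048 to 0.0077 (mt-Nd2 over mt-Nd1), -0.015 to 0.030 (mt-Co1 over mt-Nd2), -0.19 to 0.041 (mt-Co3 over mt-Atp6), -0.16 to 0.15 (mt-Nd4 over mt-Co3) and -0.024 to 0.055 (mt-Nd5 over mt-Nd4). None of these values passed a test in any fit.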

Other observations

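The table holds 3 further mitochondrial mRNAs. mt-Nd4l, a small complex I subunit whose last 7 bases overlap the start of mt-Nd4, averaged 34310 TPM over the 25 hearts (28610 to 40290). mt-Atp8, which shares 43 bases with mt-Atp6, averaged 11200 TPM (6916 to 27160), and its highest value was in GPx4+/- HFHS replicate 2. The overlapping neighbours mt-Nd4 and mt-Atp6 averaged 20330 and 35410 TPM, so overlapping genes were listed at unlike levels. Each gene is listed as a transcript of its own, and whether such neighbours share an mRNA was not tested. mt-Nd3 averaged 8546 TPM (6015 to 11610). None of the 3 passed in any contrast (limma). All 13 mRNAs together held 39.4 ± 3.97% of library TPM (SD, n = 25), and 46.6 ± 3.23% with their copies.
The shared stretch of mt-Atp8 and mt-Atp6 is shown as the start of mt-Atp6, with the 43 shared bases in capitals.
mt-Atp6: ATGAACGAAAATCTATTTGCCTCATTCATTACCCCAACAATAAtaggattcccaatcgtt

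Among 11957 nuclear genes, those whose level followed the mean of the 10 mRNAs most closely over 25 hearts, after group means were removed, were Selenot, a selenoprotein of the endoplasmic reticulum (Pearson's r = 0.91), Apoo, a subunit of the mitochondrial MICOS complex (0.903), Cep295 (0.889), Gng5 (0.862) and Ptp4a2 (0.854). The most opposite were 2310033P09Rik (-0.749), Zfp969 (-0.725), Morf4l1-ps1 (-0.721), Gm48368 (-0.71) and Lpin1 (-0.709). Without the 2 hearts farthest from the median these values were 0.876, 0.854, 0.875, 0.823 and 0.829, and -0.676, -0.708, -0.685, -0.635 and -0.618. All values of a heart share its scaling factor, and genes at the extremes of so many comparisons are a description only.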
